A study of Mus musculus with 2 samples.

Results

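Deubiquitinating enzymes are proteases that remove ubiquitin from proteins, and this report describes their transcripts in an RNA immunoprecipitation (RIP-seq) of the RNA-binding protein FMRP from mouse testis. Members were taken by gene symbol, as the rows whose names begin with Usp, Otud, Otub, Uchl, Josd, Stambp or Mindy, or with *Atxn3*, *Bap1*, *Brcc3*, *Cyld*, *Mysm1*, *Tnfaip3*, *Vcpip1*, *Yod1*, *Zranb1* or *Zup1*. The rule found 48 of the 4788 rows of the table, which stand for 47 gene symbols. *Usp39* has 2 rows with the same values, 1 on chromosome 6 and 1 on an unplaced scaffold, and was counted once wherever genes are counted. *Usp6nl* carries the name of the family but encodes a GTPase-activating protein of Rab5 and is no deubiquitinase.

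Both libraries came from testes of adult wild type males, 1 from the lysate before precipitation (input) and 1 from the RNA recovered with an anti-FMRP antibody (FMRP RIP). With 1 library per group there is no replicate error, so no difference between the libraries could be tested, and no IgG library was used here. Levels are CPM values, in which the reads of each gene are scaled by library size, and were not divided by transcript length, so they are compared between libraries and not between genes. Library sizes of 30849871 and 36506932 reads were inferred from the smallest step between values, taken as 0.01 read. They were not checked against the raw reads, and the read counts and intervals below rest on them. In CPM, 1 read of the input stood for 0.0324 and 1 read of the FMRP RIP for 0.0274. All listed genes are protein-coding genes that the authors had already called higher in the FMRP RIP, so the direction of every member is given by that selection. Of 16 marker genes of testis cell types, only *Sycp1*, a component of the synaptonemal complex of spermatocytes, was listed (10.5 CPM before and 23.8 CPM after precipitation), so the tissue label could not be checked further. In bulk testis, fewer cells of a type and less RNA per cell cannot be told apart.

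As background, ubiquitin is attached by E1, E2 and E3 enzymes and marks proteins for the proteasome, for sorting at endosomes or for signalling. Deubiquitinases trim or remove these chains, rescue proteins from degradation and recycle ubiquitin. Spermatids discard much of their cytoplasm and replace their histones, and ubiquitination takes part in both. FMRP binds messenger RNAs and regulates their translation and transport.

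*Usp8* had the highest ratio of all members. It removes ubiquitin from cargo receptors at endosomes, and in spermatids it is linked to the vesicle traffic that forms the acrosome. The gene (ENSMUSG00000027363) lies on the plus strand of chromosome 2 from 126707328 to 126759297 in GRCm38. *Usp8* had 19.8 CPM before precipitation (input) and 638.4 CPM after it (FMRP RIP), from 610 and 23305 reads. The ratio was 32.3, with an exact Clopper-Pearson 95% interval of 29.8 to 35.0 that covers counting error only. On the scale used below, log2((FMRP RIP + 1) / (input + 1)), with a pseudocount of 1 CPM that understates low genes, *Usp8* was at 4.94 and ranked 12 among the 4788 listed rows. Its ratio was 2.17 times that of the next member, *Usp34* (counting interval 1.97 to 2.39), a comparison that does not depend on how the libraries are scaled. The 5 members nearest to *Usp8* were *Usp34*, *Usp25*, *Usp15*, *Usp24* and *Usp37*, and the nearest was 1.08 lower on the log2 scale. The rank of *Usp8* was 5 with a pseudocount of 5 CPM and 35 with none, and it was the highest member at each pseudocount.

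*Usp8* shares its position with a second member. *Usp50* (ENSMUSG00000027364), a little described relative, lies on the minus strand from 126709096 to 126783470, and the annotated spans overlap by 50.2 kb, nearly all of *Usp8*. *Usp50* had 51.5 CPM before and 91.3 CPM after precipitation, a log2 ratio of 0.81 and a ratio of 1.77 (interval 1.67 to 1.88). The ratio of *Usp8* was thus 18.2 times that of the gene on the other strand (interval 16.5 to 20.2). Reads of *Usp8* were whole numbers in both libraries and those of *Usp50* held fractions. The strand setting of the counting is not given in the sources used here, so how reads were shared between the overlapping genes was not tested. *Usp10* overlaps the listed gene *Gm20388* on the same strand over 46.7 kb, *Usp34* overlaps *Ahsa2* by 2.68 kb, *Usp37* overlaps *Plcd4* by 1.40 kb and *Usp40* overlaps *Dgkd* by 62 bases, and their values carry the same limit. It holds as well for members that overlap genes outside the table in the RefSeq annotation: *Usp16* (*Cct8*), *Otud4* (*Gm51579*), *Usp37* (*Vil1* and *Cnot9*), *Usp45* (*Tstd3*), *Usp49* (*Gm20517* and *Tomm6*), *Usp30* (*Svop* and *Alkbh2*) and *Yod1* (*Pfkfb2*).

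**Figure D1:**
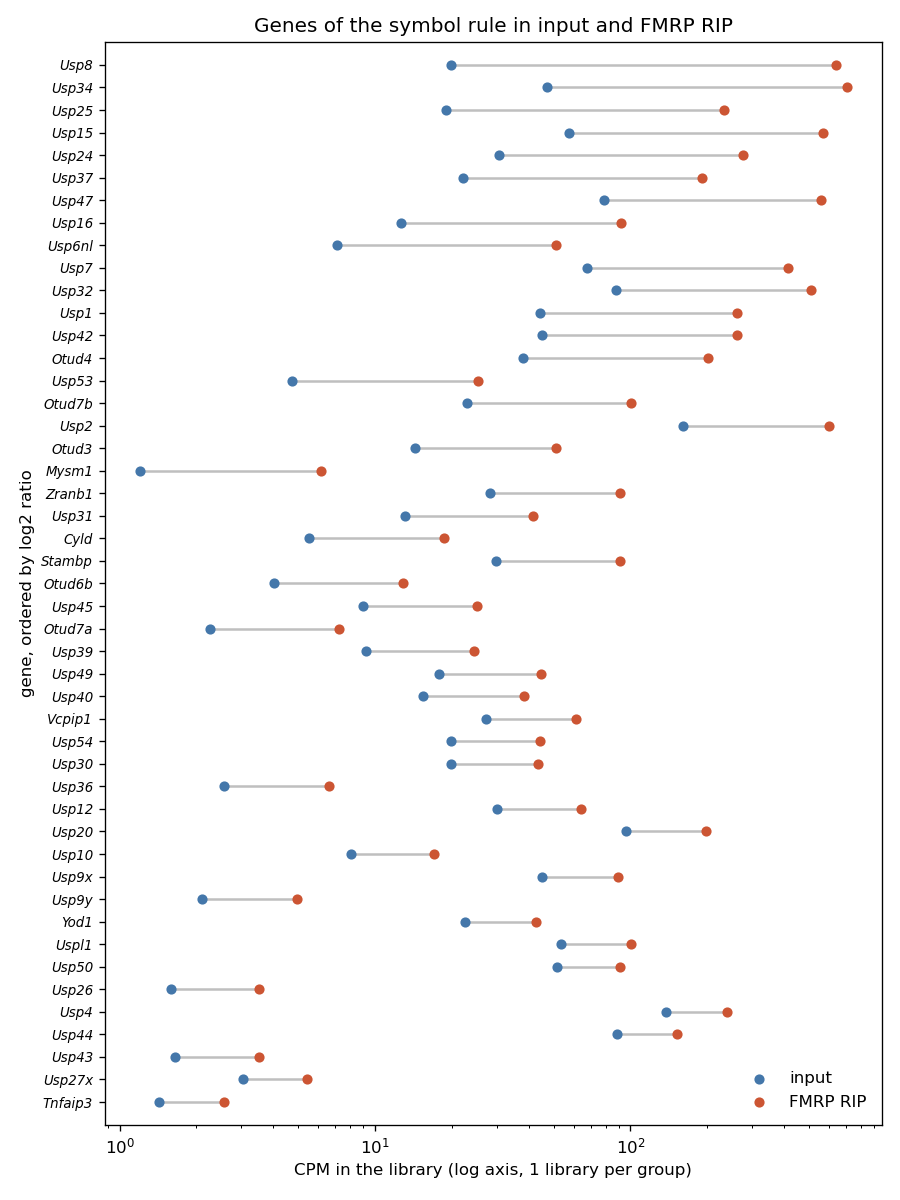
Level of each of the 47 genes in CPM (log axis) in the input library (blue) and the FMRP RIP library (red), 1 library each, ordered by log2 ratio; *Usp6nl* is drawn with the others although it is no deubiquitinase. The lines are longest for *Usp8*, from 19.8 to 638.4 CPM, and *Usp34*, from 47.2 to 702.6 CPM, and shortest near the foot of the plot, where *Usp4* goes from 138.1 to 238.2 CPM.

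Taken over all members, the share with a log2 ratio above 1 was near that of the table. It was 36 of 48 rows, against 70.1% of all listed genes, and 35 of the 47 genes (74.5%). With the pseudocount of 1 CPM, 47 of 48 rows had a fold change of 1.5 or more, against 97.3% of all listed genes, and *Tnfaip3* was the exception. With no pseudocount all 48 rows and all 4788 listed rows reached it, so this limit says nothing about the members. The median log2 ratio was 1.42 over the rows and 1.35 over all listed genes. The upper part of the distribution lay higher: the third quartile was 2.51 for the member rows and 2.0 for all listed genes. Of the 47 genes, 8 were within the top 10% of the table. The member rows also had more input, with a median of 19.9 CPM against 9.27 CPM. At 1 to 10 CPM of input the third quartile was lower for the members, 1.52 (15 genes) against 1.91. It was 2.25 (16 genes) against 2.19 at 10 to 30 CPM, and 2.76 (14 genes) against 2.26 at 30 to 100 CPM. From 100 CPM upward it was 1.62 (2 genes) against 2.02. These differences between the members and the table were not tested. Together the 47 genes took up 0.153% of the input and 0.730% of the FMRP RIP library, a ratio of 4.78, against 3.89 for all listed genes. The 8 members with the largest gain in CPM made up 64.4% of the gain of all members.

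**Figure D2:**
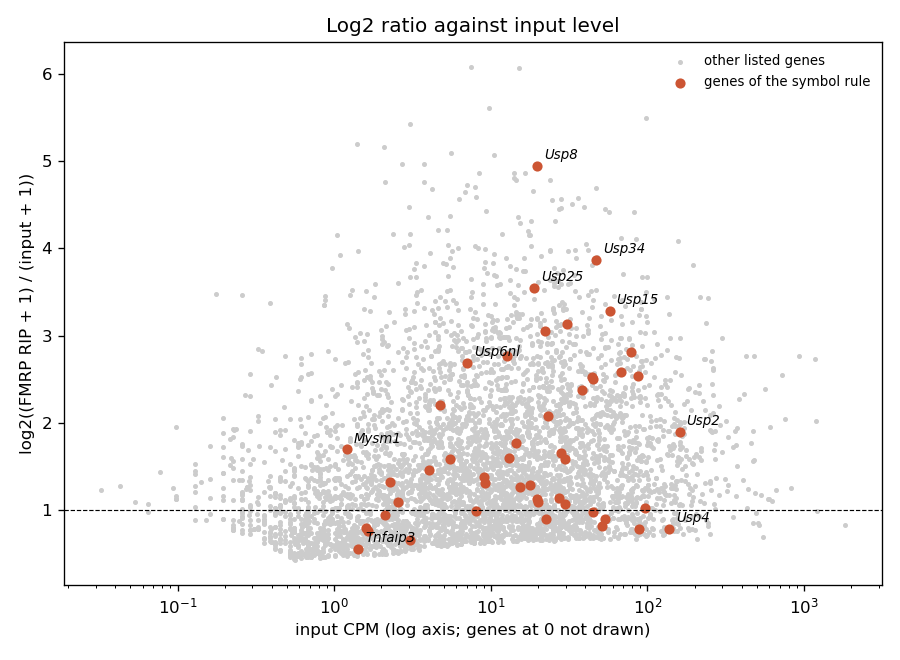
Log2((FMRP RIP + 1) / (input + 1)) against input CPM (log axis) for the 47 genes of the symbol rule (red) and all other listed genes above 0 in the input (grey), 1 library per group, with a dashed line at 1. *Usp8* stands at 4.94 with an input of 19.8 CPM, while *Usp4* with 138.1 CPM lies at 0.78.

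The families were unevenly represented. In the RefSeq annotation of GRCm38.p6, 89 protein-coding genes have symbols that fit the rule, and 47 of them were listed (52.8%), against 21.3% of all its protein-coding genes, expressed in testis or not. The ubiquitin-specific protease (USP) family had 35 of 57 genes listed, *Usp39* and *Uspl1* included, and the ovarian tumor (OTU) proteases 9 of 14. The metalloproteases of the JAMM family had 2 of 4, *Mysm1* and *Stambp*. These family sizes count only genes whose symbols fit the rule. None of the 5 ubiquitin C-terminal hydrolases (*Uchl1*, *Uchl3*, *Uchl4*, *Uchl5* and *Bap1*), the 3 Josephin proteases (*Atxn3*, *Josd1* and *Josd2*), the 4 Mindy genes or *Zup1* was listed. Genes outside the table were not analysed here, so whether they were lower, unchanged or weakly expressed was not tested. The share varied with gene span: under 10 kb it was 13.3% for this class and 4.91% for all genes, from 10 to 50 kb 51.2% and 22.1%, and from 50 to 200 kb 74.2% and 45.9%. From 200 kb upward it was 1 of 2 genes and 47.6%. Within the 47 genes, Spearman's rho between log2 ratio and gene span was 0.32, and it was 0.16 over all 4788 rows, both across genes that share the same 2 libraries.

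By role, the enzymes of chromatin and DNA repair had the highest median. Of 12 such genes, 10 had a log2 ratio above 1, where the share of all listed genes was 70.1%, and their median was 2.10 against 1.35. *Usp24*, linked to the damage sensor DDB2 and p53, had an input level of 30.6 CPM and an FMRP RIP level of 276.1 CPM (log2 ratio 3.13), and pairs of levels below are in this order. *Usp47*, which acts on DNA polymerase beta, had 78.8 and 558.8 CPM (2.81). *Usp16*, a histone H2A deubiquitinase, had 12.6 and 92.2 CPM (2.77). *Usp7*, which controls MDM2 and p53, was at 67.9 and 413.1 CPM (2.59). *Usp1*, the enzyme of FANCD2 and PCNA, was at 44.4 and 261.3 CPM (2.53), and *Usp42*, linked to p53, at 45.1 and 260.5 CPM (2.51). These 6 genes lay between 2.51 and 3.13, and the other 6 between 0.66 and 1.70. *Mysm1*, a second histone H2A deubiquitinase, had 1.2 and 6.14 CPM (1.70), and its ratio of 5.10 rests on 37 input reads (interval 3.60 to 7.45). *Usp45*, an enzyme of the repair nuclease subunit ERCC1, had 9.01 and 25.1 CPM (1.38). *Usp49*, which acts on histone H2B, had 17.8 and 44.8 CPM (1.29). *Usp12*, which works with the WD-repeat protein encoded by *Wdr48*, had 29.9 and 63.8 CPM (1.07). *Usp26*, an X-linked testis gene, was at 1.59 and 3.51 CPM (0.80), and *Usp27x*, a relative of the SAGA enzyme gene *Usp22*, at 3.05 and 5.40 CPM (0.66).

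Cell cycle and signalling enzymes came next, with a median of 1.90 over 5 genes. *Usp34*, which stabilizes axin in Wnt signalling, had 47.2 and 702.6 CPM (log2 ratio 3.87), second only to *Usp8* among the members. *Usp37*, an enzyme of cyclin A, had 22.1 and 191.1 CPM (3.05). *Usp2*, which acts on clock proteins and cyclin D1 and is needed for normal male fertility in mice, had 160.6 and 600.8 CPM (1.90). *Zranb1*, an OTU protease of Wnt signalling, was at 28.2 and 90.8 CPM (1.65). *Usp44*, a regulator of the mitotic checkpoint, had 88.2 and 152.4 CPM (0.78) and was the member of this group that stayed under 1.

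Among 6 genes of inflammatory and immune signalling the log2 ratios ran from 0.56 to 3.55. *Usp25*, linked to the TRAF adaptors, stood apart with 18.9 and 231.7 CPM (3.55). *Otud7b*, which edits chains in NF-kB signalling, had 23.0 and 100.5 CPM (2.08), and its relative *Otud7a* had 2.27 and 7.20 CPM (1.33). *Usp31* had 13.1 and 41.7 CPM (1.60). *Cyld*, which removes lysine 63-linked chains and binds microtubules, had 5.52 and 18.6 CPM (1.59). *Tnfaip3*, which encodes the NF-kB inhibitor A20, had 1.43 and 2.57 CPM (0.56), and its ratio of 1.81 rests on 44 input reads (interval 1.25 to 2.64). This was the lowest log2 ratio of the members with the pseudocount of 1 CPM, but with none the lowest was that of *Usp4*, at a ratio of 1.72.

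The endosomal enzymes held both the highest member and several near the lower end. Beside *Usp8*, *Usp32*, which acts on Rab7, had 87.5 and 510.9 CPM (log2 ratio 2.53). *Stambp*, the JAMM enzyme that binds the STAM proteins at endosomes, had 29.7 and 90.9 CPM (1.58). *Usp20*, which recycles adrenergic receptors, had 96.5 and 196.9 CPM (1.02), just over the limit. *Usp9x*, a large X-linked enzyme, had 44.9 and 89.2 CPM (0.98), just under it. Its Y-linked copy *Usp9y* had 2.11 and 4.96 CPM (0.94). The group's median was 1.30, close to that of the table.

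The remaining groups were small. Of the enzymes tied to splicing, *Usp15*, a partner of SART3 that also acts on SMAD proteins, had 57.4 and 568.4 CPM (log2 ratio 3.28), *Usp39*, a spliceosome protein without protease activity, had 9.24 and 24.4 CPM (1.31), and *Usp4*, the close relative of *Usp15*, had 138.1 and 238.2 CPM (0.78). Of those tied to RNA granules, the nucleolus and translation, *Otud4*, found in stress granules, had 38.0 and 202.0 CPM (2.38), *Otud6b*, linked to translation initiation, had 4.02 and 12.8 CPM (1.46), the nucleolar *Usp36* had 2.56 and 6.60 CPM (1.09), and *Usp10*, a partner of the stress granule protein G3BP1, had 8.08 and 17.0 CPM (0.99). The organelle enzymes lay close together: *Vcpip1*, needed for Golgi reassembly, had 27.1 and 61.2 CPM (1.14), *Usp30* of the mitochondrial outer membrane had 19.9 and 43.6 CPM (1.09), and *Yod1*, a p97 partner, had 22.4 and 42.8 CPM (0.90). None of the 10 reference genes assigned to ubiquitin recycling and the proteasome was listed, beside 52.8% of the genes that fit the rule and 21.3% of all reference genes. These 10 are among the unlisted genes already counted by family above, and their absence was not tested.

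Genes with other or little described roles ran from 0.76 to 2.20. *Usp53* had 4.71 and 25.3 CPM (log2 ratio 2.20), *Otud3* 14.4 and 51.4 CPM (1.77), and *Usp40* 15.4 and 38.4 CPM (1.26). *Usp54* had 19.8 and 44.3 CPM (1.12), *Uspl1*, a SUMO protease, 53.5 and 100.5 CPM (0.90), and *Usp43* 1.65 and 3.51 CPM (0.76). *Usp6nl*, the Rab5 regulator, had 7.09 and 51.1 CPM (2.69), and without it 34 of 46 genes (73.9%) were above 1, against 70.1% of all listed genes. These 46 still include *Uspl1* and *Usp39*.

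**Figure D3:**
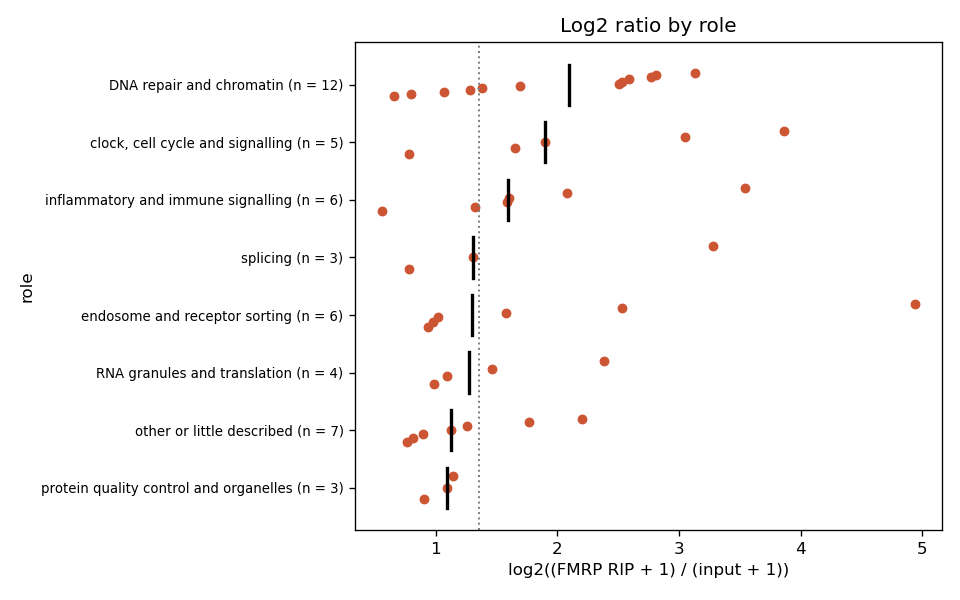
Log2((FMRP RIP + 1) / (input + 1)) of the 46 genes of the symbol rule other than *Usp6nl*, by role, each point 1 gene, with the median of each group as a black bar and the median of all listed genes as a dotted line at 1.35. The chromatin and DNA repair genes have a median of 2.10, and *Usp8* at 4.94 lies far to the right of the other endosomal genes.

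Close relatives within the family were set side by side in 10 pairs. The pairs were chosen after their values were seen and each was written with the higher ratio first, so a quotient above 1 is given by that order, and only its size is described. The quotient does not depend on library scaling. *Usp15* and *Usp4* differed most, with ratios of 9.90 and 1.72, a 5.74-fold difference (counting interval 5.40 to 6.10). *Usp37* and its X-linked relative *Usp26* differed 3.91-fold (interval 2.73 to 5.53). *Usp16* had 2.62 times the ratio of *Usp45* (interval 2.20 to 3.11), *Usp53* 2.39 times that of *Usp54* (1.96 to 2.95) and *Usp42* 2.24 times that of *Usp36* (1.71 to 2.92). Smaller differences were seen for *Usp31* over *Usp43* (1.5, interval 1.05 to 2.14), *Usp49* over *Usp44* (1.46, interval 1.31 to 1.63), *Otud7b* over *Otud7a* (1.38, interval 1.03 to 1.82) and *Usp47* over *Usp7* (1.17, interval 1.10 to 1.24). *Usp9y* had 1.18 times the ratio of *Usp9x*, and this interval, 0.88 to 1.61, includes 1. On the log2 scale with the pseudocount their order was the reverse, 0.94 and 0.98.

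**Figure D4:**
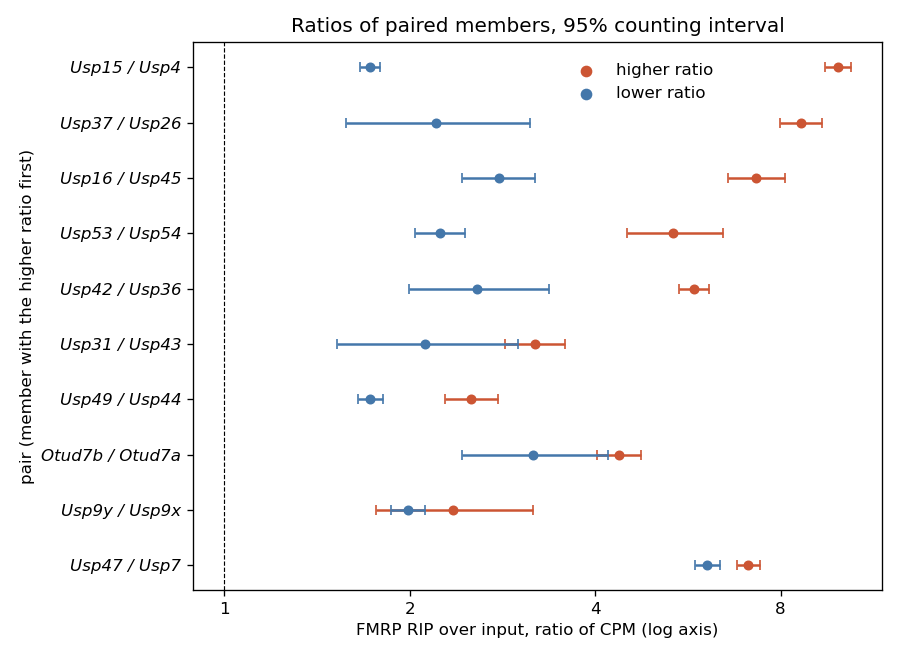
Ratio of FMRP RIP to input CPM (log axis) for 10 pairs of related genes, with exact 95% counting intervals as bars, 1 library per group; red marks the gene of the pair with the higher ratio and blue the other, and the dashed line marks a ratio of 1. *Usp15* (9.90) and *Usp4* (1.72) lie farthest apart, and the intervals of *Usp9y* and *Usp9x*, *Usp31* and *Usp43*, and *Otud7b* and *Otud7a* overlap.

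The 4 members on the sex chromosomes, *Usp9x*, *Usp9y*, *Usp26* and *Usp27x*, had log2 ratios from 0.66 to 0.98 with the pseudocount of 1 CPM, whereas 35 of 43 autosomal members were above 1. This depended on the pseudocount: with none, *Usp9y* was at 1.23 and *Usp26* at 1.14, while *Usp9x* was at 0.99 and *Usp27x* at 0.82. Listed genes of the X and Y chromosomes were above 1 in 83 of 150 cases (55.3%), against 70.5% of the others. The pseudocount lowers the ratio most at small values, and *Usp9y*, *Usp26* and *Usp27x* had 2.11, 1.59 and 3.05 CPM in the input. Its part in the difference from the autosomal members was not tested.

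Genes that work with the deubiquitinases were read from lists of symbols. Of 26 partner genes, 14 were listed and 11 of these (78.6%) had a log2 ratio above 1, against 70.1% of all listed genes, with a median of 1.58. *Hgs*, which encodes the subunit of the endosomal ESCRT-0 complex that holds the USP8-binding STAM proteins, had 64.1 and 387.2 CPM (log2 ratio 2.58), and *Stam* had 3.92 and 9.01 CPM (1.02). *Asxl1*, a partner of BAP1, had 70.9 and 360.3 CPM (2.33), although *Bap1* itself was not listed. *Wdr48*, the cofactor of USP1, USP12 and USP46, had 192.6 and 562.4 CPM (1.54). Of the listed partners under 1, *Sart3* had 7.33 and 13.2 CPM (0.77) and *Atxn7l3* 13.8 and 24.2 CPM (0.77). The other, *Spata2*, had 6.42 and 10.4 CPM (0.61), the lowest of the listed partners. The partners named above 1 were chosen after their values were seen. Of the p97 segregase and its cofactors, 9 of 18 genes were listed and 4 of these (44.4%) were above 1, beside the same 70.1%, with a median of 0.96. Of ubiquitin genes and E1 and E2 enzymes, 9 of 45 were listed (20%) and 7 of these (77.8%) were above 1, again beside 70.1%. Of 51 proteasome genes only 3 were listed (5.88%), *Psme4*, the activator PA200 of the testis, with 139.7 and 1103 CPM (2.97), *Psmc2* with 151.2 and 297.7 CPM (0.97) and *Psmf1* with 174.2 and 324.0 CPM (0.89). The shares listed stand beside 21.3% of all reference genes, and no list was tested against either share.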

How the data were processed

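The authors deposited 1 table of protein-coding genes called higher in the FMRP RIP, with CPM per library. The submitters' processing notes name STAR and GRCm38 (mm10), and the study's methods name edgeR. The counting tool and strand setting are not given in the sources used here. The table also holds the authors' fold changes, p-values and calls, which were not used. Deposited CPM values were whole multiples of a smallest step, taken as 0.01 read. On that reading, 78.4% of input and 78.8% of FMRP RIP values above 0 were whole reads (within 0.005). No count test was run, because there is 1 library per group and the genes had already been called higher.

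Both samples were grouped by their labels. Log2 ratios use a pseudocount of 1 CPM. Intervals (exact Clopper-Pearson for ratios, conditional exact for ratios of ratios, 95%) use rounded reads and cover counting error only, since there is 1 library per group. They treat each read as independent. PCR copies are not independent molecules, so the intervals may be too narrow even for counting error. A floor of 3 reads came to 0.0972 (input) and 0.0822 CPM (FMRP RIP), and no member was near it. The members, role groups and lists were chosen with earlier results of these data known. The rule for naming took *Usp8*, the 8 highest and 8 lowest members with at least 100 reads, the 3 with the highest input and all outside the USP family (28 genes). The other 19 are given because the symbol rule asks for every member. Of the listed rows, 4717 matched RefSeq, all 47 members included. Protein features were not analysed. Functions were tested on simulated data. Computations ran in Python 3.11.15 with scipy 1.17.1, pandas 2.3.3 and numpy 2.4.6, and plots in matplotlib 3.10.9.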

Additional observations from a re-analysis of the deposited data

How the results depend on the processing

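Of the member rows, 36 had a log2 ratio above 1 with the pseudocount of 1 CPM, 28 with 5 CPM, 40 with a smaller one or none, and 48 with each library scaled by its reads on unlisted genes, which multiplies each FMRP RIP value by 1.92. The shares of all listed genes above 1 were 70.1%, 51.7%, 79.7% and 81.3% (smaller, none), and 4786 of 4788, so the counts moved with the table. The count at a fold change of 1.5 or more ranged from 43 to 48. The median, 1.42, was 1.10 with 5 CPM and 2.32 with the other scaling. The table's median moved with it, from 1.35 to 1.04 and 2.24. A minimum of 1 CPM left all 48 rows, and 1 row per symbol gave 35 genes above 1 and a median of 1.46. Of 168 values of single members, 44 left their counting interval, 28 of them with the scaling and 15 with 5 CPM. The scaling multiplies all FMRP RIP values alike, but with the pseudocount added afterwards low genes rise less. *Usp8* went from 4.94 to 5.88 and *Tnfaip3* from 0.56 to 1.29. None of the 168 values changed direction, which the selection of the listed genes fixes. Of 72 counts over lists and role groups, 6 left 1.5 times: with 5 CPM, ubiquitin, E1 and E2 genes went from 7 to 4, RNA granules and translation from 3 to 1 and organelles from 2 to 1, and with the scaling, p97 went from 4 to 9, the proteasome from 1 to 3 and little described roles from 4 to 7. Members with few input reads (*Mysm1*, 37, and *Tnfaip3*, 44) have the widest intervals relative to their ratios. No paired analysis was possible because input and FMRP RIP are single libraries, and for the same reason no library could be left out.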
